A study of Ovis aries with 9 samples.

Results

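Intraflagellar transport (IFT) and BBSome genes encode the machinery that carries cargo along every cilium, motile or primary. They were taken from a table of read counts in sheep ovaries as the rows whose symbol began with IFT or BBS and a number, together with TTC26, TTC8, TTC21B, WDR19, WDR34, WDR35, WDR60, CLUAP1, TRAF3IP1, DYNC2H1, DYNC2LI1, KIF3A, KIF3B, KIFAP3, KIF17, ARL6, ARL3 and MKKS. This rule used names only and gave 42 of the 27174 rows, which belonged to 39 gene symbols, and 38 of them had enough reads to be tested among 16871 tested genes. The study compared adult ewes of a breed of low fecundity with ewes of a prolific breed that carried, or did not carry, the FecB mutation of the BMP receptor gene BMPR1B. Each of the 3 groups held 3 ewes. D4, D5 and D6 were Dorset ewes, whose genotype is labelled wild type without naming a locus. Han BB (W1, W2 and W4) were Small Tail Han ewes with 2 copies of the mutation (FecBBFecBB), and Han ++ (W6, W7 and W8) were ewes of the same breed without it (FecB+FecB+). All 9 ewes had their estrus synchronised with sponges of fluorogesterone acetate and an injection of pregnant mare serum gonadotropin. Whole ovaries were removed after a later spontaneous estrus, and their RNA was sequenced, 1 library per ewe. A whole ovary mixes oocytes, follicles, stroma and surface epithelium, and Dorset differed from both Han groups in breed, so breed and FecB genotype cannot be told apart in Han BB against Dorset.

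A cilium cannot make its own proteins, and trains of IFT particles move them in and out along the axoneme. The IFT-B complex and kinesin-2 carry cargo outward to the tip, the IFT-A complex and the dynein-2 motor carry it back, and the BBSome rides on these trains as an adaptor that moves membrane proteins such as G protein-coupled receptors. Many ovarian cells bear a single, immotile primary cilium, in which Hedgehog signalling takes place, whereas the beating cilia of multiciliated epithelium, as in the oviduct, also need outer and inner dynein arms, radial spokes and a central pair. Transport genes are therefore shared by both kinds of cilia, and the genes of the motile axoneme are not. In RNA from a whole organ, fewer ciliated cells and less RNA per cell cannot be told apart.

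Total counts lay between 10803913 and 20992535 reads per library, and values are given as CPM (a gene's reads over the library's total, on a fixed scale that corrects for depth) after TMM scaling, which are not divided by gene length, so levels are compared between ewes and not between genes. W4 of the Han BB group and D6 of the Dorset group stood apart from the other 7 libraries, with scores of 88.6 and 73.0 on a first principal component that held 44.3% of the variance of all tested genes, and D4 lay at the other end at -77.1. The remaining 6 libraries lay between -42.3 and 5.85. The counts and medians over the members are therefore also given without W4 and D6. Markers of the ovary were present in every library, with the steroidogenic gene CYP11A1 at 73.6 to 493 CPM and the granulosa cell gene INHA at 13.6 to 95.2 CPM, whereas the germ cell gene NLRP5 was at 0 in W7 and the oocyte growth factor BMP15 had too few reads to be tested. The counts do not show the FecB mutation itself, a base change in BMPR1B.

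No transport gene passed an adjusted p of 0.05 with a fold over 1.5 in any pairwise comparison by edgeR's quasi-likelihood test. TTC26, TTC8 and BBS12 were higher in all 6 Han ewes than in all 3 Dorset ewes. These were 7.89% of the tested members, beside 1.83% of all tested genes. The 38 tested members also differed in how they varied between ewes. IFT74, IFT81, KIF3A and DYNC2H1 were among 18 members (47.4%) whose highest levels were in W4 and D6, 1 ewe of each breed. The share of all tested genes was 18.6%. BBS1, MKKS, BBS12 and ARL3, in contrast, differed by 1.44, 1.51, 1.58 and 1.61 times between the highest and the lowest ewe. Genes of the motile axoneme, the comparison list, had a larger median spread than the transport genes, 7.02 against 3.12 times. Their median CPM was also lower, 11.5 against 31.3.

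**Figure D1:**
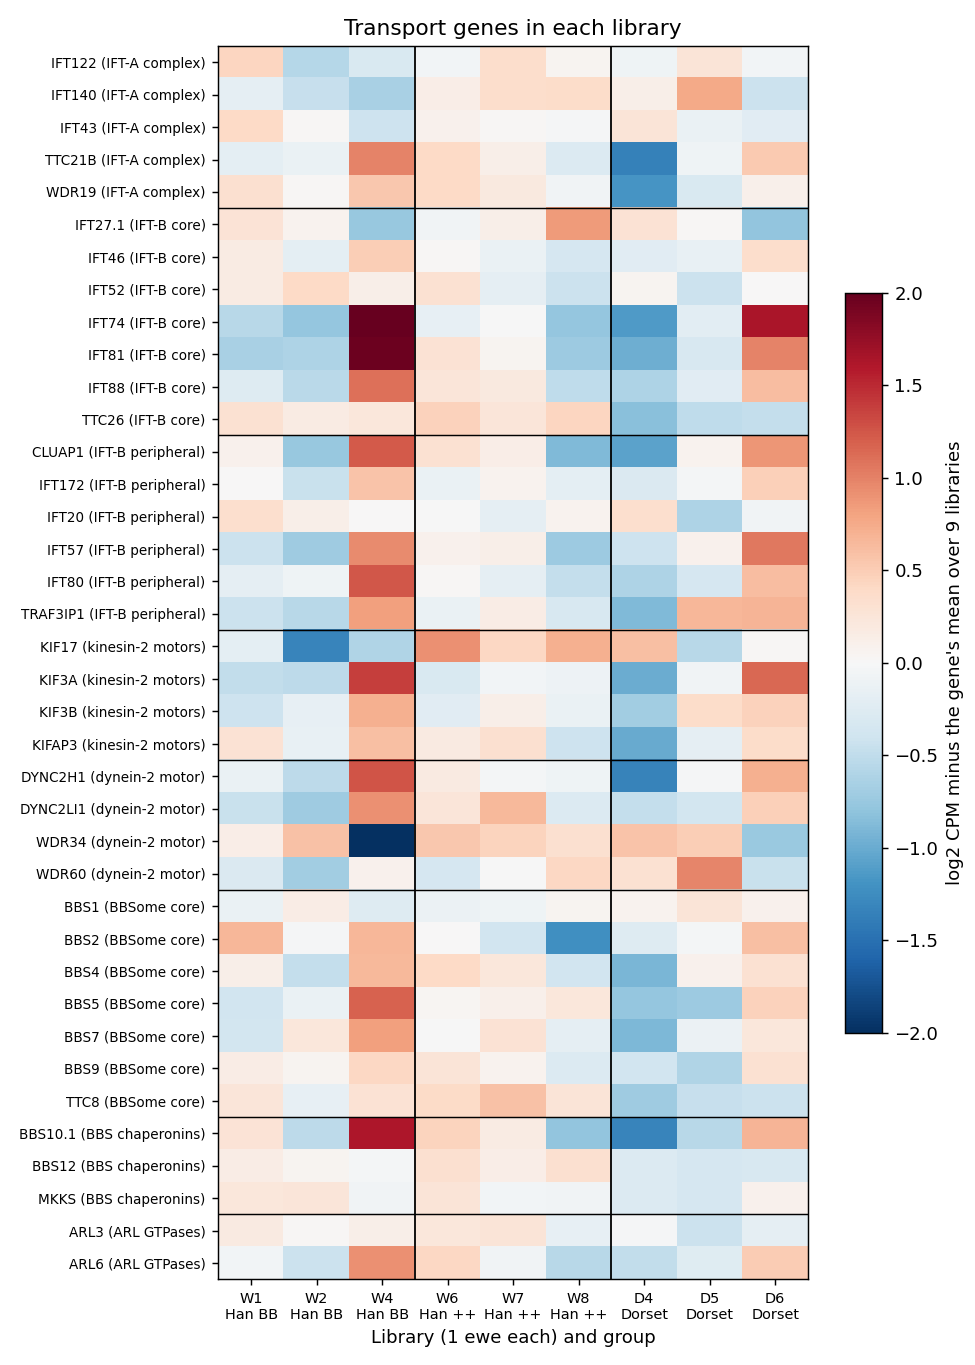
Each cell is the log2 CPM of a tested transport gene in 1 library minus that gene's mean over the 9 libraries, with genes ordered by complex and libraries by group. W4 and D6 are red across much of IFT-B and the motors, whereas the rows of TTC26, TTC8 and BBS12 are red or near 0 in the 6 Han libraries and blue in the 3 Dorset libraries.

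Of the 42 rows, 4 could not be tested. WDR35, an IFT-A subunit, had 11 reads in W6, 7 in D4, 3 in W4 and none elsewhere. The row IFT27 had at most 8 reads in a library and BBS7.1 at most 1, and BBS10 had none, whereas the rows IFT27.1, BBS7 and BBS10.1 carried the reads of these genes. Among tested members the lowest count in a library was 7 reads, for KIF17, and the median CPM over libraries ran from 1.40 for KIF17 to 136 for DYNC2H1. Of the 39 symbols, 36 were found by name in the RefSeq annotation of the ARS-UI_Ramb_v3.0 assembly, which is not the build of the counts, and 12 of them overlap another gene there, among them IFT74, IFT140, WDR19, BBS2 and KIF17. TTC26, WDR34 and WDR60 were not found by these names, and their other names were not looked up. Overlap with a neighbour was therefore not checked for them. Since no source used here states whether strand was counted, reads of an overlapping gene may include those of its neighbour.

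The IFT-B complex, which drives outward transport, held a member that was higher in every Han ewe than in every Dorset ewe. TTC26, also called IFT56, is a subunit that in other animals brings motility proteins into cilia. Its levels were 4.18, 5.27 and 5.42 CPM in D4, D5 and D6, 9.40, 8.48 and 8.90 CPM in W1, W2 and W4, and 10.4, 8.96 and 10.2 CPM in W6, W7 and W8. No Han value came within the Dorset range, and W4 and D6 lay beside the other ewes of their groups. TTC26 was 0.84 ± 0.29 (log2 fold change ± SE) higher in Han BB than in Dorset (unadjusted p = 0.0133, adjusted p = 0.975, edgeR) and 0.99 ± 0.29 higher in Han ++ than in Dorset (unadjusted p = 0.00553, adjusted p = 0.654, edgeR). Between Han BB and Han ++ it differed by -0.14 ± 0.28, with a 95% interval of -0.76 to 0.48. Its direction against Dorset held in 18 of 18 alternative settings for each Han group, though leaving out ewes could hardly reverse it where groups do not overlap. Its adjusted p ran from 0.289 to 1.00 for Han BB and from 0.147 to 1.00 for Han ++. The paper treats TTC26 as a methylated long non-coding RNA and states that real-time PCR found it down-regulated. The reference group of that statement is not named. Taken against Dorset, it would be opposite in direction to the counts here, and the reason was not tested.

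The other IFT-B core subunits did not share that pattern. IFT74 and IFT81 form a pair that binds tubulin, and both were far higher in W4 and D6 than elsewhere. IFT74 was at 45.3, 38.7 and 264 CPM in W1, W2 and W4, at 59.2, 66.4 and 39.1 CPM in W6, W7 and W8, and at 30.4, 57.6 and 207 CPM in D4, D5 and D6. Its highest ewe was thus 8.70 times its lowest, the widest spread of any tested member, and 2.19 times without W4 and D6. The 3 groups overlapped, and its log2 fold changes were 0.24 ± 0.79 in Han BB against Dorset, -0.84 ± 0.79 in Han ++ against Dorset and 1.08 ± 0.80 in Han BB against Han ++, each with an interval across 0. The last pair of differences turned with single ewes, to 0.31 without D6 for Han ++ against Dorset and to -0.40 without W4 for Han BB against Han ++. IFT81 lay at 171 CPM in W4 and 87.4 CPM in D6, and at 22.2 to 53.4 CPM in the other 7 ewes.

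IFT88, a core subunit without which cilia do not form in mice, was at 32.3, 26.4 and 82.7 CPM in W1, W2 and W4, at 45.3, 44.1 and 27.1 CPM in W6, W7 and W8, and at 24.9, 32.9 and 58.98 CPM in D4, D5 and D6. Again W4 and D6 were highest and the groups overlapped, with means of 47.1 ± 30.9 CPM for Han BB, 38.8 ± 10.2 CPM for Han ++ and 38.9 ± 17.8 CPM for Dorset (SD, n = 3 each). IFT46 and IFT52, which join core subunits together, had narrower spreads of 1.78 times each. IFT27.1, the row for a small GTPase that links IFT-B to the BBSome, went the other way, with its lowest values in D6 (9.27 CPM) and W4 (9.43 CPM) and 15.3 to 29.0 CPM in the other 7.

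In the peripheral part of IFT-B, W4 and D6 were the 2 highest libraries for 5 of 6 genes: IFT172, IFT57, IFT80, CLUAP1 and TRAF3IP1. IFT172, the largest subunit, was at 81.0, 58.98 and 119 CPM in W1, W2 and W4, at 72.9, 84.4 and 70.2 CPM in W6, W7 and W8, and at 65.6, 77.9 and 112 CPM in D4, D5 and D6. Its groups overlapped and its log2 fold changes lay between -0.17 and 0.19, with all 3 intervals inside -0.86 to 0.88. CLUAP1 (IFT38) and TRAF3IP1 (IFT54), which bridge the train to tubulin and kinesin, spread by 4.95 and 3.29 times. IFT20, which also works at the Golgi in sorting membrane cargo, was the exception: it was highest in D4 at 61.7 CPM and lowest in D5 at 31.6 CPM.

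IFT-A, the complex for return transport, split between its members. IFT140, of its core, was at 28.8, 23.8 and 20.8 CPM in W1, W2 and W4, at 36.1, 41.8 and 42.2 CPM in W6, W7 and W8, and at 35.5, 55.5 and 24.2 CPM in D4, D5 and D6. All 3 Han BB ewes lay below all 3 Han ++ ewes, and the Dorset ewes overlapped both groups. The log2 difference of Han BB from Han ++ was -0.71 ± 0.32 (unadjusted p = 0.0471, adjusted p = 0.999, edgeR) and that of Han BB from Dorset -0.65 ± 0.32 (unadjusted p = 0.0643, adjusted p = 0.977, edgeR), the latter moving to -0.27 without D5. WDR19 (IFT144), also of the core, was at 46.8, 38.0 and 54.6 CPM in W1, W2 and W4, at 49.5, 43.0 and 35.9 CPM in W6, W7 and W8, and at 16.4, 30.3 and 40.2 CPM in D4, D5 and D6. Only D6 of the Dorset ewes reached the range of the Han ewes, and the log2 fold changes against Dorset were 0.68 ± 0.33 for Han BB and 0.56 ± 0.33 for Han ++ (unadjusted p = 0.0659 and 0.119, edgeR). TTC21B (IFT139) followed W4 and D6 with a spread of 5.14 times, and IFT122 and IFT43 spread by 2.01 and 1.76 times with no group apart.

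The outward motor kinesin-2 consists of KIF3A, KIF3B and the accessory subunit KIFAP3, and W4 and D6 were the 2 highest libraries for all 3. KIF3A was at 43.4, 42.03 and 159 CPM in W1, W2 and W4, at 49.1, 58.7 and 56.7 CPM in W6, W7 and W8, and at 30.5, 58.0 and 134 CPM in D4, D5 and D6. Its spread fell from 5.21 times over 9 ewes to 1.93 times over 7, and its groups overlapped, with log2 fold changes of 0.13 ± 0.59 for Han BB and -0.44 ± 0.59 for Han ++ against Dorset. KIF17, a separate motor of the same family, had few reads, at 1.19, 0.490 and 0.870 CPM in W1, W2 and W4, 2.67, 1.85 and 2.30 CPM in W6, W7 and W8, and 2.14, 0.902 and 1.40 CPM in D4, D5 and D6. Every Han BB ewe lay below every Han ++ ewe for KIF17, by -1.41 ± 0.65 on the log2 scale (unadjusted p = 0.0532, adjusted p = 0.999, edgeR), and its differences from Dorset were -0.78 ± 0.65 for Han BB and 0.63 ± 0.64 for Han ++.

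For the return motor dynein-2, the heavy chain DYNC2H1 was at 126, 96.6 and 333 CPM in W1, W2 and W4, at 158, 136 and 131 CPM in W6, W7 and W8, and at 55.1, 137 and 227 CPM in D4, D5 and D6. W4 and D6 were highest and D4 lowest, so that the groups overlapped and the log2 fold changes were 0.41 ± 0.54, 0.02 ± 0.54 and 0.39 ± 0.54 in Han BB against Dorset, Han ++ against Dorset and Han BB against Han ++. The intermediate chain WDR34 showed the opposite order, with 1.14 CPM in W4, 3.63 CPM in D6 and 6.69 to 9.25 CPM in the other 7 ewes. The subunits of 1 motor were thus not all high in the same ewes. DYNC2LI1, the light intermediate chain, ran from 20.9 CPM in W2 to 65.0 CPM in W4, and WDR60, the other intermediate chain, from 5.39 CPM in W2 to 17.4 CPM in D5.

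Among the subunits of the BBSome, TTC8 (BBS8) differed most between the breeds. It was at 10.02, 11.9 and 12.2 CPM in D4, D5 and D6, at 19.5, 14.8 and 20.2 CPM in W1, W2 and W4, and at 21.5, 24.9 and 19.8 CPM in W6, W7 and W8. The Dorset ewes were the lowest 3, with W2 nearest to them. TTC8 was 0.95 ± 0.26 higher in Han ++ than in Dorset on the log2 scale (unadjusted p = 0.00388, adjusted p = 0.624, edgeR) and 0.67 ± 0.26 higher in Han BB (unadjusted p = 0.0258, adjusted p = 0.975, edgeR). Over 18 alternative settings its direction held in 18 for each Han group, which leaving out ewes could hardly reverse, since the groups do not overlap. Its adjusted p ran from 0.10 to 1.00 for Han ++ and from 0.327 to 1.00 for Han BB. Between Han BB and Han ++ the difference was -0.28 ± 0.26, with an interval of -0.85 to 0.29.

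BBS1, the subunit that meets the ARL6 GTPase, was the steadiest transport gene. Its levels were 17.0, 20.7 and 15.6 CPM in W1, W2 and W4, 17.2, 17.7 and 19.4 CPM in W6, W7 and W8, and 19.8, 22.4 and 19.8 CPM in D4, D5 and D6. All 3 Han ++ ewes lay below all 3 Dorset ewes, but only by -0.19 ± 0.25 on the log2 scale, with an interval of -0.73 to 0.35. BBS2, part of the BBSome core, was at 51.9, 32.4 and 52.0 CPM in W1, W2 and W4, at 33.2, 25.2 and 13.9 CPM in W6, W7 and W8, and at 27.4, 32.0 and 49.8 CPM in D4, D5 and D6. W2 lay just below W6, so the Han groups overlapped, and Han BB exceeded Han ++ by 0.91 ± 0.37 on the log2 scale (unadjusted p = 0.0321, adjusted p = 0.999, edgeR). BBS4 was at 41.5, 27.3 and 59.8 CPM in W1, W2 and W4, at 50.4, 44.7 and 29.4 CPM in W6, W7 and W8, and at 20.2, 40.7 and 47.0 CPM in D4, D5 and D6, with overlapping groups and log2 fold changes of 0.05 to 0.25. The remaining subunits, BBS5, BBS7 and BBS9, were lowest in D4 or D5 and highest in W4, with spreads of 3.94, 3.29 and 2.03 times.

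BBS10, BBS12 and MKKS (BBS6) are chaperonin-like proteins that assemble the BBSome. BBS12 was at 14.3, 13.7 and 13.9 CPM in D4, D5 and D6, at 19.1, 17.9 and 16.8 CPM in W1, W2 and W4, and at 21.7, 18.9 and 21.6 CPM in W6, W7 and W8. The 3 Dorset ewes lay close together and below every Han ewe, and the log2 difference was 0.57 ± 0.24 for Han ++ (unadjusted p = 0.0350, adjusted p = 0.895, edgeR) and 0.36 ± 0.24 for Han BB (unadjusted p = 0.156, adjusted p = 0.996, edgeR). BBS10.1 was at 9.59, 5.46 and 24.5 CPM in W1, W2 and W4, at 10.7, 8.82 and 4.51 CPM in W6, W7 and W8, and at 3.11, 5.36 and 12.7 CPM in D4, D5 and D6. It had the largest fitted log2 fold change of any member in Han BB against Dorset, 0.89 ± 0.63, but its groups overlapped and the value ran from 0.06 without W4 to 1.64 without D6. MKKS lay between 19.5 and 29.3 CPM in all 9 ewes.

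The 2 small GTPases of the list also differed in spread. ARL6 (BBS3), which brings the BBSome to the membrane, was at 18.3, 14.2 and 36.1 CPM in W1, W2 and W4, at 25.5, 18.3 and 13.0 CPM in W6, W7 and W8, and at 13.6, 16.1 and 27.1 CPM in D4, D5 and D6. ARL3, which releases lipid-anchored cargo inside the cilium, was at 65.3, 58.8 and 62.5 CPM in W1, W2 and W4, at 67.2, 68.6 and 51.6 CPM in W6, W7 and W8, and at 56.4, 42.6 and 51.0 CPM in D4, D5 and D6. ARL6 was highest in W4 and D6 and its groups overlapped. For ARL3 the 3 Han BB ewes lay above the 3 Dorset ewes, by 0.31 ± 0.24 on the log2 scale, with an interval of -0.21 to 0.84.

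**Figure D2:**
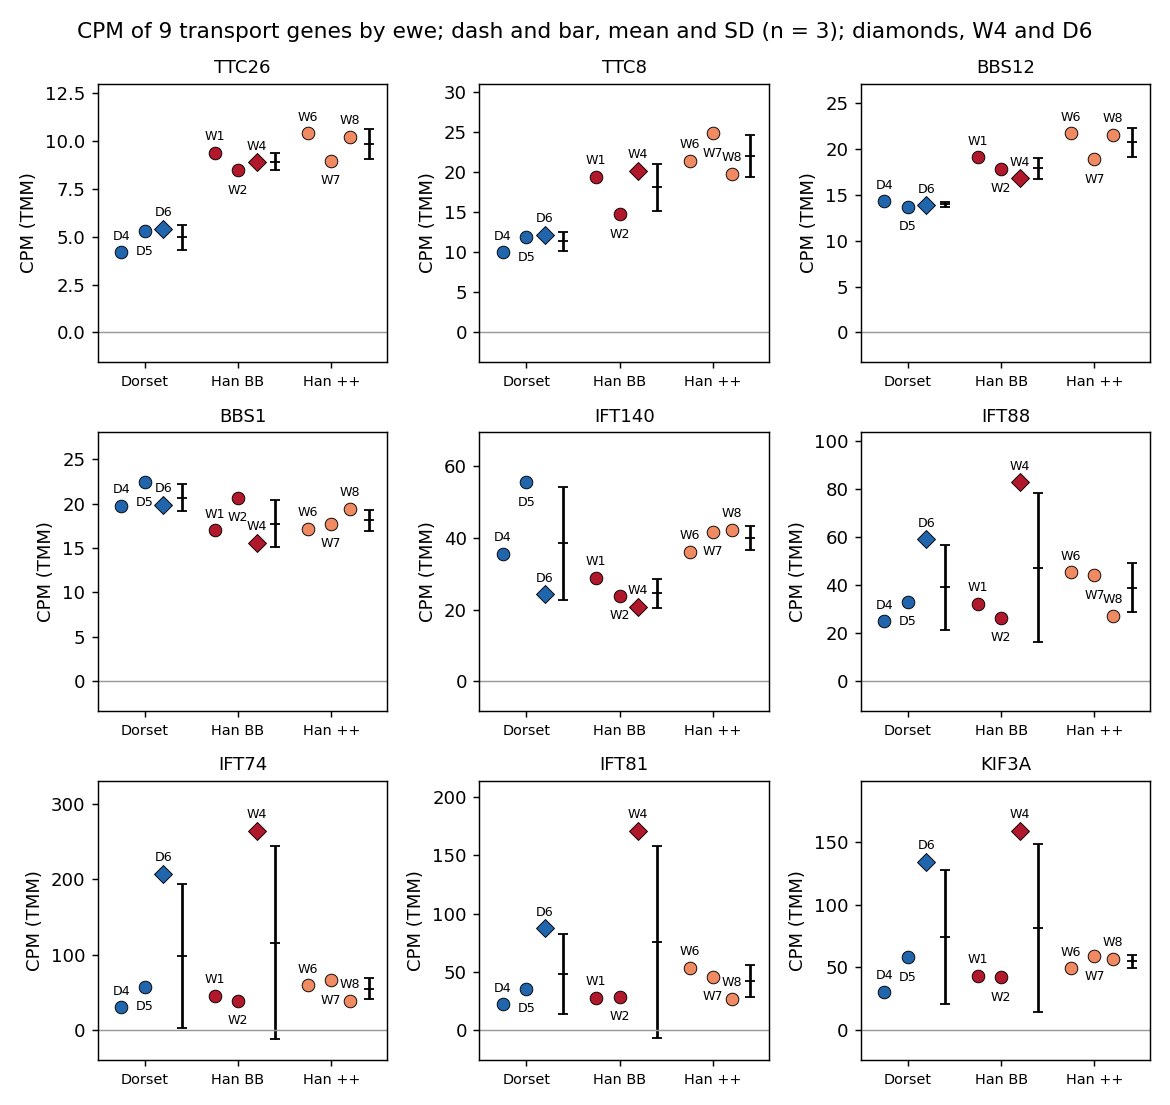
CPM of 9 transport genes in each ewe by group, with a dash and bar for the mean and SD of 3 ewes and diamonds for W4 and D6. TTC26, TTC8 and BBS12 separate all Dorset ewes from all Han ewes, BBS1 is nearly level, and IFT88, IFT74, IFT81 and KIF3A are highest in W4 and D6.

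Counted over the whole set, the comparisons gave no called member. In Han BB against Dorset, 0 of 38 members were called, beside 0% of all tested genes. Unadjusted p was under 0.05 (edgeR) for 2 members (5.26%), TTC8 and TTC26, both higher in Han BB, beside 4.99% of all genes. Over settings that left out 1 library this number ran from 1 to 8, with 8 without D6, when 9.39% of all genes were also below that p. The 3 Han BB ewes lay above the 3 Dorset ewes for 5 members (13.2%), beside 4.27% of all genes. These were IFT52, TTC26, TTC8, BBS12 and ARL3. For 0 members the 3 Han BB ewes lay below the 3 Dorset ewes, beside 4.52% of all genes. The fitted log2 fold change was above 0 for 29 of 38 members with a median of 0.26, against a median of -0.01 over all tested genes, but without W4 the members' median was -0.07. Without W4 and D6 it was 0.15, and 4 members had an unadjusted p under 0.05 (WDR60, WDR19, TTC26 and IFT140), beside 7.37% of all genes.

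In Han ++ against Dorset, the comparison of the Han ewes that lack the mutation with the other breed, 0 of 38 members were called, beside 0.00593% of all tested genes, which was 1 gene. TTC8, TTC26 and BBS12, all higher in Han ++, had an unadjusted p under 0.05 by edgeR, 7.89% of members beside 5.27% of all genes. Non-overlapping groups were found for 3 members higher in Han ++ (TTC26, TTC8 and BBS12), 7.89% beside 5.47% of all genes. They were found for 1 of 38 members lower in Han ++ (BBS1), beside 5.59% of all genes. The median log2 fold change was 0.05 over the members and -0.06 over all genes, and the members' median ran from -0.07 without D4 to 0.33 without D6 when 1 library was left out. It was 0.33 without W4 and D6 together, 0.36 with a term for these 2 libraries and 0.21 with limma. Single members ranged from -0.84 for IFT74 to 0.99 for TTC26. Without W4 and D6, 6 members had an unadjusted p under 0.05 (WDR19, TTC8, TTC26, BBS5, BBS12 and DYNC2LI1, beside 8.87% of all genes), and still 0 were called.

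In Han BB against Han ++, the comparison of FecB genotypes within the breed, 0 of 38 members were called, beside 0% of all tested genes. BBS2 was higher and IFT140 lower in Han BB at an unadjusted p under 0.05 (edgeR), 5.26% of members beside 1.97% of all genes. Leaving out W1, W4, W7 or W8 left 0 such members. No member lay higher in all Han BB ewes, beside 4.78% of all genes. Of the 38 members, 2 (IFT140 and KIF17) lay lower, beside 4.59% of all genes. The members' median log2 fold change of 0.19, against 0.04 over all genes, became -0.17 without W4 and D6 and -0.18 without W4. Without W4 and D6, 1 member, DYNC2LI1, had an unadjusted p under 0.05, beside 3.41% of all genes. DESeq2 and limma also called 0 members in each of the 3 comparisons. At an unadjusted p under 0.05 DESeq2 found 2, 3 and 3 members in Han BB against Dorset, Han ++ against Dorset and Han BB against Han ++, beside 5.40%, 4.63% and 2.21% of all genes. At the same p limma found 4 of 38 in each, beside 11.5%, 9.78% and 7.26% of all genes. The comparisons share their groups of ewes and are not independent of each other.

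**Figure D3:**
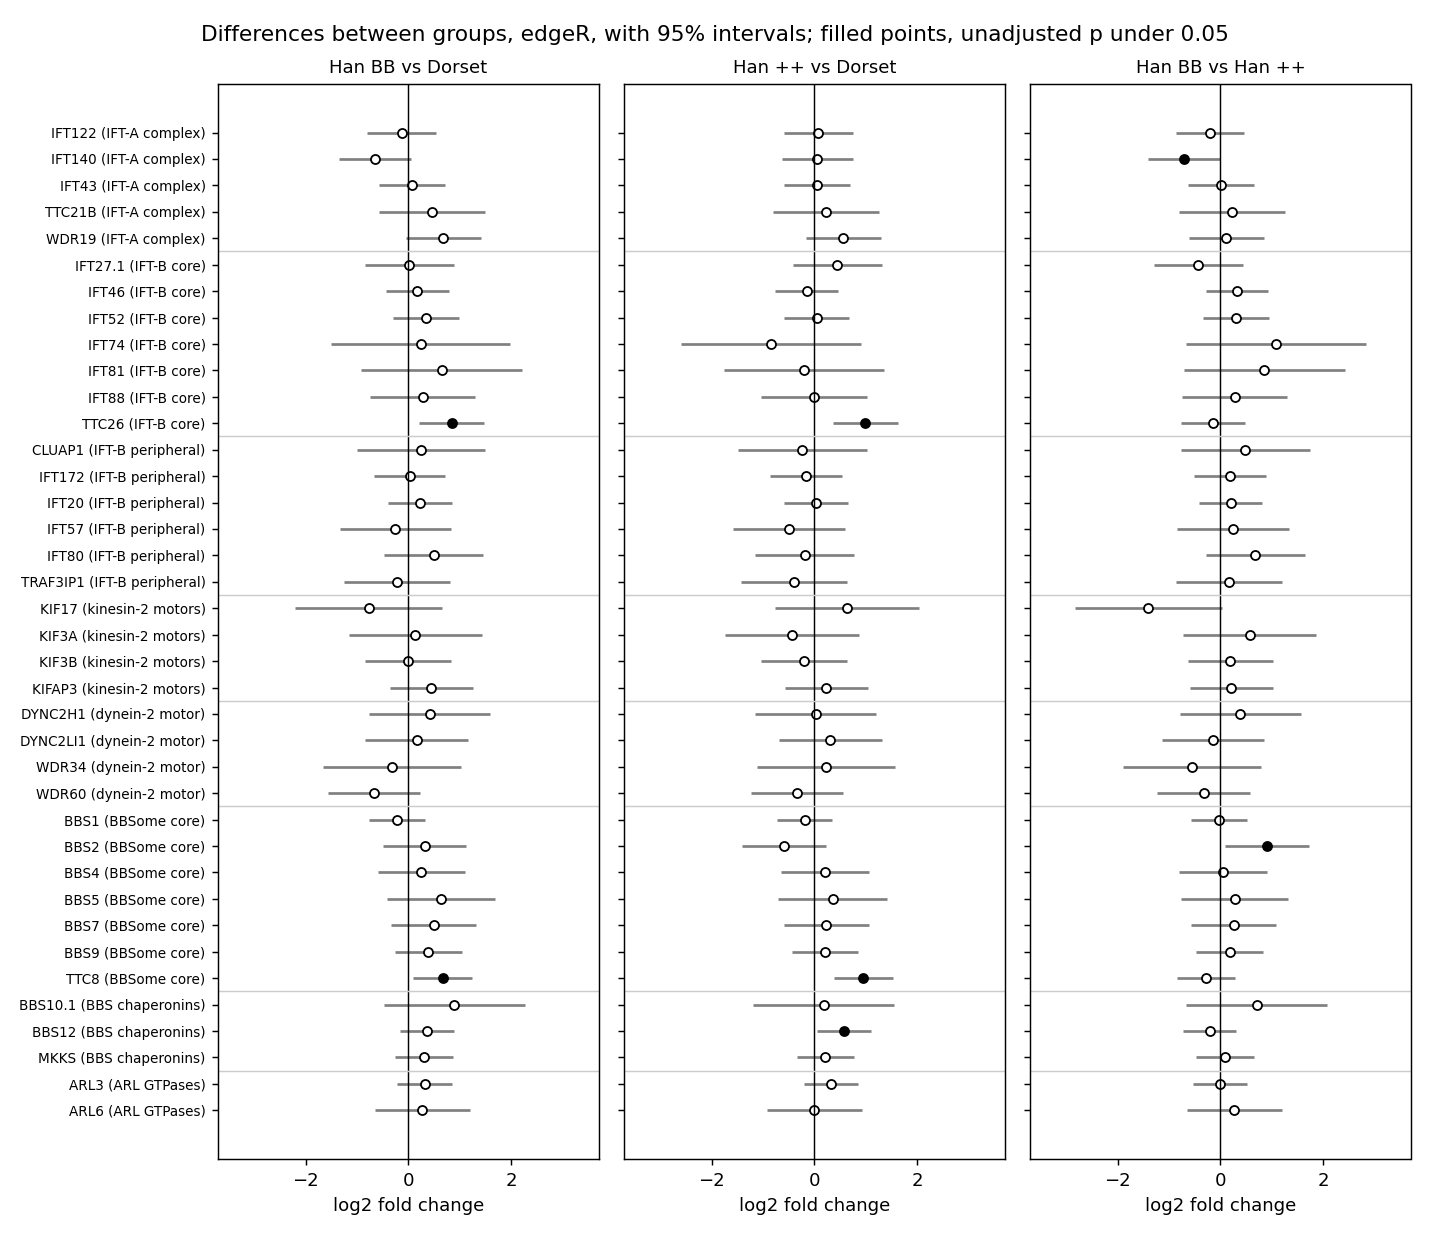
Log2 fold change of each tested transport gene (points) with its 95% interval (lines) in the 3 comparisons, by edgeR, with filled points for an unadjusted p under 0.05. TTC26 and TTC8 lie to the right of 0 against Dorset in both Han groups, and the widest intervals belong to IFT74, IFT81 and KIF17.

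With both Han groups set against Dorset in the same model, a comparison added after these values had been seen, TTC26 was higher by 0.92 ± 0.26 on the log2 scale (unadjusted p = 0.00441, adjusted p = 0.513, edgeR), TTC8 by 0.81 ± 0.23 (unadjusted p = 0.00509, adjusted p = 0.513, edgeR) and BBS12 by 0.47 ± 0.21 (unadjusted p = 0.0477, adjusted p = 0.804, edgeR). No member was called, beside 0% of all genes. These 3 were the members with an unadjusted p under 0.05 (edgeR), 7.89% beside 6.12% of all genes. They were also the 3 members with all 6 Han ewes above all 3 Dorset ewes, 7.89% beside 1.83% of all genes. For 0 members all Han ewes lay below, beside 1.93% of all genes. In a test of any difference among the 3 groups, 0 members passed an adjusted p of 0.05, beside 0% of all genes, and TTC8 and TTC26 had unadjusted p of 0.0121 and 0.0136 (edgeR), beside 3.94% of all genes under 0.05. Without W4 and D6, all 5 remaining Han ewes lay above both remaining Dorset ewes for 7 members (18.4%), beside 7.4% of all genes. These were TTC26, TTC8, BBS12, BBS5, BBS9, MKKS and WDR19. For 0 members the remaining Han ewes all lay below, beside 7.33% of all genes. By complex, these 7 were 3 of 7 BBSome genes, 2 of 3 chaperonins, 1 of 5 IFT-A genes and 1 of 7 core IFT-B genes. None were among 6 peripheral IFT-B genes, 4 kinesin-2 genes, 4 dynein-2 genes and 2 ARL GTPases. With so few genes in each, these counts cannot tell the complexes apart. Leaving out W4 and D6 took out D6 but kept D4, the lowest library for 18 of 38 members (47.4%), beside 19.8% of all genes.

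Some markers of oviduct secretory epithelium divided the ewes in the same way. Of its 6 listed markers 5 were tested, and none of these was at 0 in any ewe. OVGP1, TFF3 and WFDC2 were higher in all 6 Han ewes than in all 3 Dorset ewes, and PAX8 and MSLN were not. The summed level of the 5 ran from 388 to 727 CPM among Dorset ewes, from 871 to 1143 CPM among Han BB ewes and from 805 to 1886 CPM among Han ++ ewes, nearly all of it OVGP1, an oviduct glycoprotein. FOXJ1, the regulator of motile cilium genes, was at 8.32 to 11.2 CPM among Han ++ ewes, at 2.88 to 5.84 CPM among Han BB ewes and at 2.61 to 3.13 CPM among Dorset ewes, so that Han BB and Dorset overlapped. The part of such epithelium in the differences of TTC26, TTC8 and BBS12 was not tested.

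Set against the motile axoneme, the transport genes varied less between ewes. The axoneme list held 51 genes of dynein arms, radial spokes, central pair and their docking, of which 47 were in the table and tested. DNAH5, an outer arm dynein heavy chain, was at 99.2, 43.1 and 318 CPM in W1, W2 and W4, at 146, 159 and 81.5 CPM in W6, W7 and W8, and at 29.6, 35.0 and 103 CPM in D4, D5 and D6. SPAG6, a central pair protein, was at 8.83, 6.79 and 17.1 CPM in W1, W2 and W4, at 19.2, 16.2 and 14.7 CPM in W6, W7 and W8, and at 3.41, 2.61 and 9.44 CPM in D4, D5 and D6. Both genes were lowest in D4 and D5, and D6 alone of the Dorset ewes reached into the Han range. RSPH1, a radial spoke protein, CCDC39, a ruler of the axoneme, DNAI1, an intermediate chain, and HYDIN, of the central pair, spread by 11.7, 12.4, 5.36 and 3.81 times between the highest and lowest ewe.

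The ratio of the highest to the lowest ewe was over 3 for 21 of 38 transport genes (55.3%), 38 of 47 axoneme genes (80.9%) and 53.8% of all tested genes. Without W4 and D6 it was over 3 for 6 transport genes (15.8%), 35 axoneme genes (74.5%) and 35.6% of all genes, and the median ratio was 2.07, 4.30 and 2.33 in that order. The transport genes were thus near all genes in spread over 9 ewes, and below the axoneme genes with and without W4 and D6. The lists also differed in reads, with a median CPM of 31.3 for transport genes, 11.5 for axoneme genes and 15.3 for all genes. Such ratios widen where reads are few, and the part of this in the spread was not tested. W4 and D6 were the 2 highest libraries for 18 of 38 transport genes (47.4%), 9 of 47 axoneme genes (19.1%) and 18.6% of all genes. They were the 2 lowest for 3 transport genes (IFT43, IFT27.1 and WDR34), 0 axoneme genes and 17.2% of all genes. Of 20 tested genes of the transition zone, the gate at the cilium's base, they were the 2 highest for 8 (40%) and the 2 lowest for 2 (10%). Of 20 tested transport genes outside the naming rule, they were the 2 highest for 4 (20%) and the 2 lowest for 7 (35%). By complex, they were the 2 highest for 5 of 6 peripheral IFT-B genes, 4 of 7 core IFT-B genes, 3 of 4 kinesin-2 genes, 1 of 5 IFT-A genes, 1 of 4 dynein-2 genes and 2 of 7 BBSome genes. These shares describe the libraries, and what sets W4 and D6 apart was not tested.

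**Figure D4:**
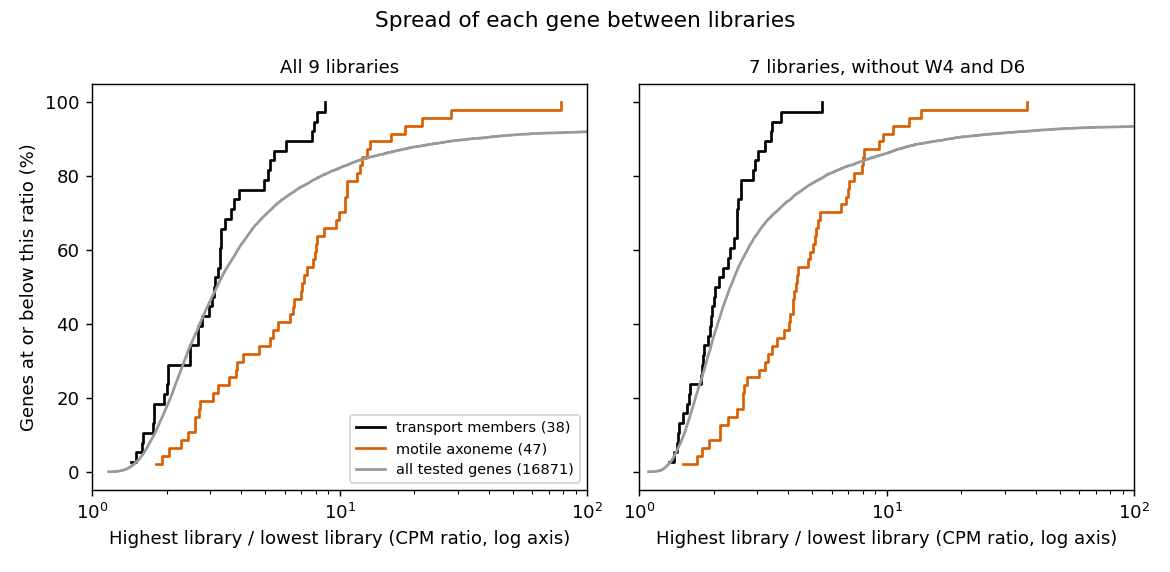
Cumulative percent of genes against the ratio of the highest to the lowest library in CPM, on a log axis cut at 100, for 38 transport genes, 47 motile axoneme genes and all tested genes. The axoneme curve lies to the right in both panels (median 7.02 over 9 libraries and 4.30 over 7), and the transport curve ends below 10.

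Per ewe, the median level of the transport genes relative to each gene's own mean (log2 scale) was 0.05, -0.16 and 0.58 in W1, W2 and W4, 0.18, 0.12 and -0.17 in W6, W7 and W8, and -0.48, -0.17 and 0.33 in D4, D5 and D6. The same median over the axoneme genes was -0.30, -0.57 and 1.30 in W1, W2 and W4, 0.67, 0.56 and -0.10 in W6, W7 and W8, and -0.92, -0.84 and 0.35 in D4, D5 and D6. W4 was highest and D4 lowest for both lists. W6 and W7 lay near the average for transport genes and further above it for axoneme genes, and D5 was near the average for the first and well below it for the second. The median log2 fold changes of the axoneme genes were 0.80 in Han BB against Dorset (39 of 47 above 0), 0.68 in Han ++ against Dorset (43 of 47) and 0.03 in Han BB against Han ++ (24 of 47), beside 0.26, 0.05 and 0.19 for the transport genes. Only 1 axoneme gene, ROPN1L, a radial spoke protein, was called, in Han ++ against Dorset (adjusted p = 0.0446, edgeR). That call was lost with limma, with 2 groups only and without any 1 library other than W4, since no gene was called in those settings. The difference between the lists was not tested.

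Other genes of the primary cilium were read in the same way. The 20 tested genes of the transition zone, the gate at the cilium's base, had median log2 fold changes of 0.27, 0.14 and 0.22 in Han BB against Dorset, Han ++ against Dorset and Han BB against Han ++, and 1, 0 and 1 of them had an unadjusted p under 0.05, all higher in the first-named group. The share of all tested genes at that p was 4.99%, 5.27% and 1.97% in the 3 comparisons, so counts of 1 in these lists are near that share in the comparisons with Dorset. The 15 tested genes of Hedgehog signalling, which runs through the primary cilium, had medians of -0.46, -0.34 and -0.16, with 2, 1 and 0 genes at that p, all lower. GLI1, a target of the pathway, was at 28.7 CPM in D5, 8.86 CPM in D4, 4.52 CPM in D6 and 2.03 to 7.28 CPM in the 6 Han ewes. D5 was the highest ewe for 11 of the 15 Hedgehog genes, and for 3 of 38 transport genes. The 20 tested transport genes outside the naming rule, which include kinesin, BBSome and IFT partners with other names, had medians of -0.00, 0.01 and 0.03, with 1, 2 and 0 genes at that p and none called.

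**Figure D5:**
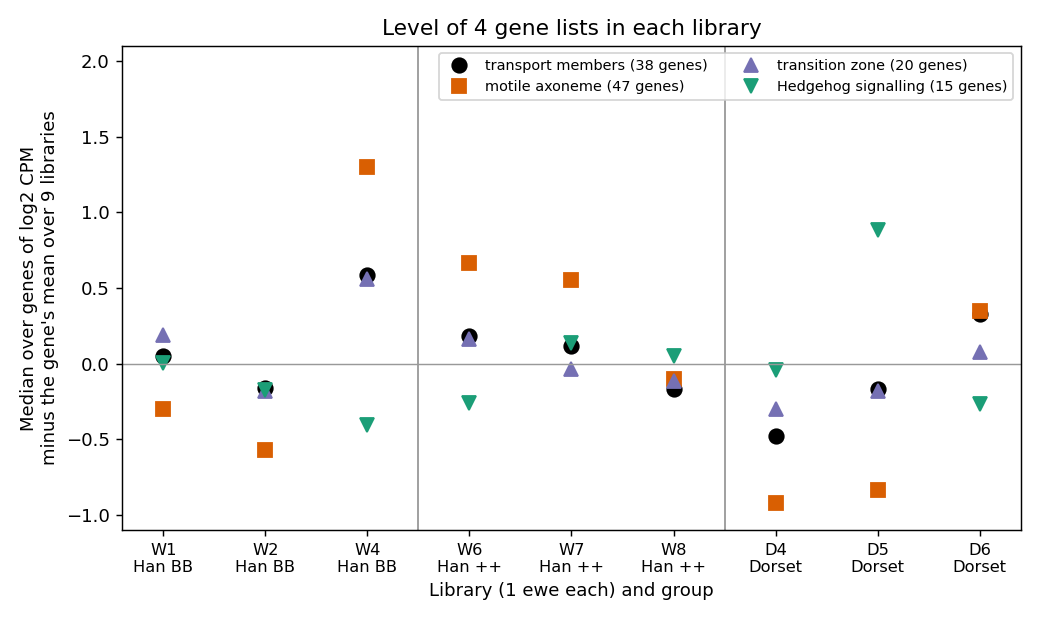
Median over genes of log2 CPM minus the gene's mean over 9 libraries, for 4 gene lists in each library. Transport and transition zone genes lie closest together in W4, W6, W2 and D5, the axoneme genes range from -0.92 in D4 to 1.30 in W4, and the Hedgehog genes are highest in D5 at 0.88.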

How the data were processed

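Ovaries of 9 ewes were profiled by RNA-Seq. The authors aligned reads to the Oar3.1 sheep genome with TopHat at default settings and kept unique reads, and they deposited raw, unscaled counts per gene. Which program counted the reads, and whether it used strand, is not given in the sources used here. The methods and the labels name different library kits. Total counts were 10803913 to 20992535 per library. PCR reads are not independent molecules.

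The counts were tested with edgeR 4.0.16 under R 4.3.3 (filterByExpr, TMM, quasi-likelihood test, 3 groups in 1 model), and p-values were adjusted by Benjamini-Hochberg over 16871 genes. A gene was called at an adjusted p under 0.05 and a fold over 1.5. Standard errors were derived from the test statistic. The biological coefficient of variation was 0.472. Relative levels used log2(CPM + 0.1). DESeq2 1.42.0, limma 3.58.1, other filters, omission of each library and a term for W4 and D6 were alternatives. The edgeR script was tested on simulated data. Replicates differed beyond sampling noise in all 9 pairs. Figures used matplotlib 3.10.9.

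The members, gene lists and tests were chosen with earlier results of these data known. Members printed in full were those with the 3 lowest p-values and the largest and smallest fold change in each comparison, 13 well-known subunits, and the widest and narrowest spread. IFT81, WDR34 and other members were named after their values were seen.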

Additional observations from a re-analysis of the deposited data

How the results depend on the processing

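No transport gene was called under any alternative that was run. TTC26, TTC8 and BBS12 kept their direction against Dorset in 18 of 18 settings each where they are named. For these genes Han and Dorset ewes did not overlap, so leaving out ewes could hardly reverse the direction, and these counts do not measure robustness. Of all recomputed values, 399 counted as unchanged, 45 moved and 13 changed sign, and the cause was not tested. A named gene counted as unchanged if its sign and call stayed, whatever its size, as BBS10.1 did at 0.06 without W4 in Han BB against Dorset (0.89 as reported). A median log2 fold change counted as unchanged if its sign stayed and it moved by less than 0.34. The setting without a fold threshold used the main fit again. Genes called in Han BB against Dorset (0 as reported) numbered 29 with DESeq2, 2 with no filter on low counts, 2 without W4 and D6, 1 with a term for these, and 0 to 1 with a library left out (1 without W4). In Han ++ against Dorset (1 as reported) they numbered 65 with DESeq2, 0 with limma, 11 with no filter, 0 with 2 groups only, 22 without W4 and D6, 78 with the term, and 0 to 5 with a library left out (5 without W4). In Han BB against Han ++ (0 as reported) DESeq2 and limma each called 2. The members' median log2 fold change ran from -0.068 (without W4) to 0.53 (without D6) in Han BB against Dorset and from -0.070 (without D4) to 0.33 (without D6) in Han ++ against Dorset when a library was left out. In the latter comparison it was 0.05 as reported, 0.33 without W4 and D6, 0.36 with the term and 0.21 with limma. In Han BB against Han ++ it ran from -0.18 (without W4) to 0.30 (without W2) in that way, and was -0.15 with limma, -0.17 without W4 and D6 and -0.17 with the term. For IFT74, the log2 fold change of Han ++ from Dorset was 0.31 without W4 and D6, 0.39 with the term and -1.28 (without D4) to 0.31 (without D6) with a library left out. That of Han BB from Han ++ was -0.19 with limma, -0.40 without W4 and D6, -0.31 with the term and -0.40 (without W4) to 1.5 (without W2). The comparison of levels per kilobase was not run, since only gene spans were at hand. No paired analysis was possible because the animal numbers do not pair ewes across groups. With 3 ewes per group, the intervals of the members stay wide.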
